A study of Xenopus laevis x Xenopus muelleri with 8 samples.

Results

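Solute carriers are membrane proteins that move sugars, amino acids, ions, metals, nucleotides and vitamins across membranes without splitting ATP themselves, and they are sorted into numbered families. A growing oocyte takes up nutrients and ions through such carriers in its own membrane and through gap junctions with the follicle cells around it. Within the cell, most of family 25 serves the inner mitochondrial membrane. Family 35 supplies the endoplasmic reticulum and Golgi with nucleotide sugars and related donors. Families 30 and 39 move zinc, a metal that frog oocytes store with their yolk.

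Probe sets with a single gene symbol that began with slc, a family number and a letter were taken as solute carrier genes, which gave 98 of 11485 probe sets. They stand for 92 of the 5790 symbols that probe sets with deposited values carry singly, and fall into 36 families. In these, 68 probe sets carried a symbol ending in .L and 26 one ending in .S, the marks of the 2 copies (homeologs) that most genes have in Xenopus laevis, and 4 carried neither. The name alone decided membership, so the 2 probe sets of slc9a3r1.L, a scaffold protein that binds transporters, and that of slc3a2.L, the heavy chain that partners several amino acid carriers, are included.

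Ovaries came from sexually mature hybrid frogs with a laevis mother (Cape of South Africa) and a muelleri father (Swaziland), raised from eggs to adulthood under a 12L:12D photoperiod. By title there were 4 ovaries in the normal group and 4 in the sex-reversed one, each on its own Affymetrix array. The sources used here do not state how sex had been reversed. The titles call the arrays biological replicates and say nothing of litter or batch, so a p-value here reflects only how much these 8 samples vary. The source name of every array said testis and that of sex-reversed replicate 4 also said normal, so arrays were grouped by title, and values without replicate 4, or with it counted as normal, are given for some genes below and in the closing section.

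The tissue label was checked against markers, which is only a rough check because probe sets differ in how brightly they bind. The 7 probe sets of oocyte markers, among them the egg envelope genes zp2.L, zp4.S and zpd.L, had a mean log2 level of 9.57 to 9.82 in normal and 9.56 to 9.93 in sex-reversed ovaries, and none lay below the lower quartile of every array. The 4 probe sets of testis markers had means of 3.35 to 3.96 and 3.27 to 3.69 in the same order of groups, and 2 of them lay below the lower quartile of every array. They cover 3 of the 6 genes listed. The brightest, sox9.S, was at 4.52 to 6.04 in normal and 4.57 to 5.09 in sex-reversed ovaries (−0.71 ± 0.33, SE). Among other cell types, the mean of 12 liver probe sets, 7 of them below the lower quartile throughout, was 3.53 to 3.78 in normal and 3.80 to 3.92 in sex-reversed ovaries, without overlap. Single liver probe sets went both ways, with a median difference of 0.06. They ran from −0.52 for ttr.L to 1.21 on an ambp.L probe set, and the other ambp.L probe sets gave −0.17 and −0.20. Members of the follicle wall and epithelium lists also went both ways. The keratin markers krt8.1.S and krt7.L gave −1.43 ± 0.26 and −1.08 ± 0.24 (SE), while the gap junction gene gja1.L gave 0.32 and 0.67 on its 2 probe sets and the adhesion genes cdh1.S and epcam.S 0.34 and 0.13. The median difference was −0.13 over the 6 follicle wall probe sets and 0.13 over the 3 of epithelium. Means of the leukocyte, skeletal muscle, smooth muscle and endothelium lists overlapped between the groups. Their median differences were −0.08, 0.10, −0.08 and −0.02 in that order. The muscle gene acta1.S was at 6.57 and 5.97 in normal replicates 2 and 3 and at 2.86 to 4.01 elsewhere. The leukocyte gene cd74.L was at 8.90 in normal replicate 3 and at 6.10 to 7.53 elsewhere. The part of these cell types in the values below was not tested. By correlation over the probe sets that are not solute carriers, the arrays fell into 2 sets that cut across the groups. One set held normal replicates 1 and 4 with sex-reversed replicates 3 and 4, and the other the remaining 4 arrays. Correlations ran from 0.954 to 0.972 within a set and from 0.943 to 0.953 between sets, and whether this split is technical or biological was not tested.

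All values below are log2 expression as deposited. Probe sets differ in how brightly they bind, so levels are compared between arrays and not between genes, and the lower quartile of an array serves only to mark dim values. The lower quartile of the arrays lay at 3.99 to 4.05 and the median at 6.0 to 6.04. Below the lower quartile of every array lay 8 of the 98 probe sets. Detection was not tested, and a difference between dim values says little.

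No solute carrier probe set differed between sex-reversed and normal ovary after adjustment over all 11485 probe sets (limma, adjusted p of 0.434 or more). The count past an adjusted p of 0.05 in limma was 0 of 98 and 0 over all probe sets (0%). Differences were balanced, with 53 values above 0 and 45 below and a median of 0.02 on the log2 scale, beside 0.00 over all probe sets. Unadjusted p fell under 0.05 in 1 member on the higher side (1.02%, against 3.21% of all probe sets) and in 3 on the lower side (3.06% against 3.17%). The groups did not overlap in 5 members (5.1% against 4.06%). These shares lie near or below those of all probe sets. In a bulk ovary sample, fewer cells of a type and less RNA per cell cannot be told apart.

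Single arrays moved these counts. The higher-side count at an unadjusted p of 0.05 was 6 without normal replicate 4, 3 without normal replicate 1, 2 or 3, and 2 without sex-reversed replicate 1 or 4. Without normal replicate 4 this was 6.12% of members against 2.77% of all probe sets. It was 3.06% against 2.92%, 3.39% and 3.49% without normal replicate 1, 2 or 3 in turn. Leaving out sex-reversed replicate 1 or 4 gave 2.04% against 2.54% and 3.31%, and leaving out replicate 2 or 3 gave 1.02% against 2.6% and 2.91%. The members without overlap numbered 7 to 11 (7.14% to 11.2%) when 1 array was left out, against 6.36% to 8.26% of all probe sets. Fewer arrays make overlap rarer by construction. Keeping only probe sets with a mean of at least 4 left 8707 probe sets, 79 of them members. Of these members 0 were higher (3.39% of the 8707), 1 lower (1.27% against 3.16%) and 3 without overlap (3.8% against 4.11%). The counts fell because slc8a1.S, slc25a32.L and 1 slc41a3.L probe set drop out as dim.

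How narrowly a change was bounded differed between members. In 65 of 98 (66.3%) the 95% interval of the difference lay within a 2-fold change either way, against 78.0% of all probe sets. The half-width of that interval ran from 0.27 to 3.52 log2, with a median of 0.54 (0.48 over all probe sets).

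**Figure D1:**
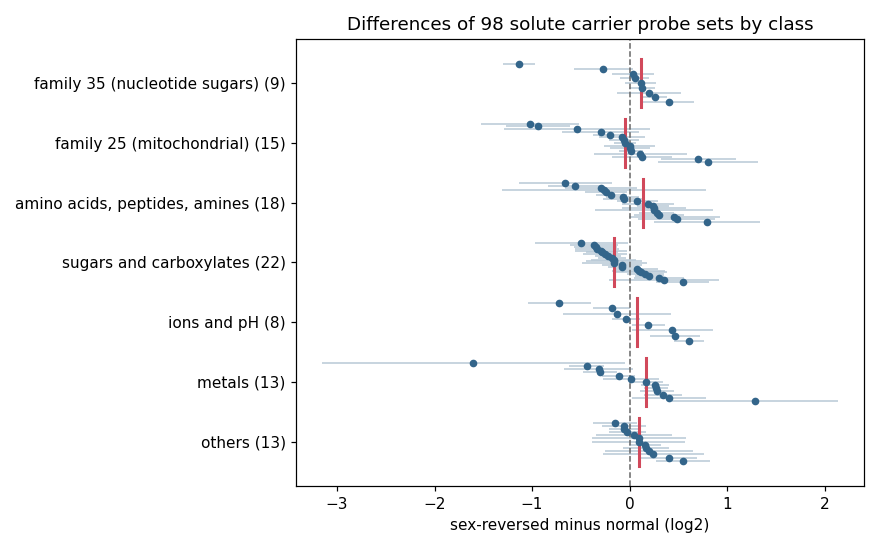
Each point is 1 of the 98 solute carrier probe sets, placed by its mean log2 value in sex-reversed minus normal ovary (horizontal axis) and its transport class (vertical axis, number of probe sets in brackets), with bars of 1 SE from limma, a red line at the class median and a dashed line at the median of all probe sets. The class medians lie between −0.16 and 0.17, slc35e1.L stands at −1.13 with a short bar, and slc39a7.L at −1.60 and 1 slc41a3.L probe set at 1.28 have the longest bars in their class.

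The nucleotide sugar family 35 held 9 probe sets, 7 of them with a value above 0 and 2 below, with a median difference of 0.11. Its lowest difference was that of slc35e1.L, a family member measured by 1 probe set, which earlier results of these data had already shown. Normal replicates 1 to 4 gave 4.76, 4.70, 4.90 and 4.77 for slc35e1.L, and sex-reversed replicates 1 to 4 gave 3.53, 3.94, 3.33 and 3.79. Every sex-reversed value lay below every normal one. With sex-reversed replicate 4 counted as normal the groups overlapped, since its 3.79 lies below the 3.94 of sex-reversed replicate 2. The difference was then −0.98.

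The mean of slc35e1.L was 4.78 ± 0.08 (SD, n = 4) for the normal group against 3.65 ± 0.27 (SD, n = 4) for the other, a log2 difference of −1.13 ± 0.16 (SE, adjusted p = 0.434 in limma), or 0.457 of the normal level. Within the 2 array sets the difference was −1.20 and −1.06. Over 17 other settings it lay between −1.23 and −0.98, with adjusted p from 0.272 to 0.925 in limma. Several of these settings, such as the replicate block and the filter on the mean, cannot move the difference itself. The normal values lie above the lower quartile of their arrays and the sex-reversed ones below it. No probe set with deposited values was named for its homeolog.

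The UDP-galactose carrier gene slc35a2.L, also without overlap, had a small difference of the other sign. It measured 8.16, 8.41, 8.49 and 8.28 in normal and 8.56, 8.66, 8.58 and 8.57 in sex-reversed ovaries (0.26 ± 0.13, SE; adjusted p = 0.796 in limma) and the groups are separated by less than the SE. The genes slc35b2.S and slc35b3, which move the sulfate donor PAPS in mammals, gave 0.05 for the former and 0.13 and 0.11 on the 2 probe sets of the latter. Less well known members, slc35c2.S and slc35f2.L, gave 0.20 ± 0.33 (SE) and 0.40 ± 0.26.

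The 2 probe sets of slc35b1, which brings ATP into the endoplasmic reticulum in human cells, differed in sign. That of slc35b1.L gave 0.03 ± 0.21 (SE), and that listed as slc35b1 with no ending gave −0.27 ± 0.30. On the latter, sex-reversed replicate 4 was at 6.60 and the other 7 arrays lay between 7.70 and 8.05. Without that array the difference was 0.06.

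**Figure D2:**
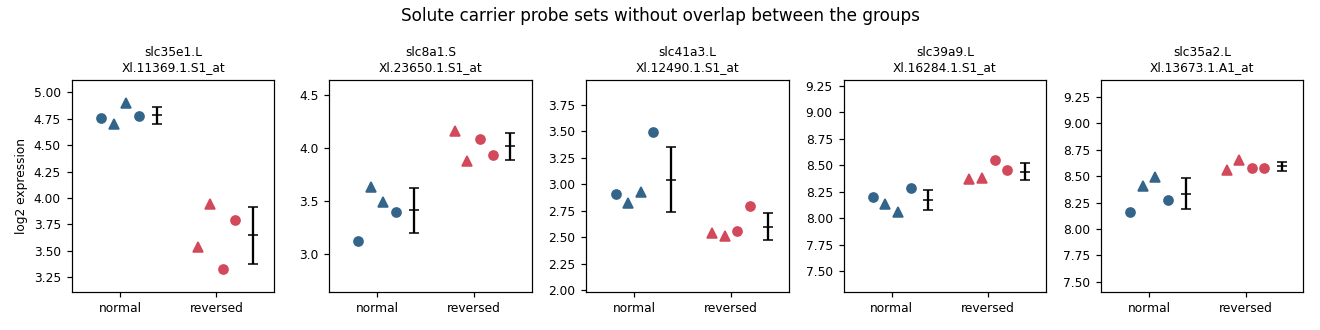
Log2 expression (vertical axis, each panel with its own range of at least 2 log2) in normal (blue) and sex-reversed (red) ovaries for the 5 solute carrier probe sets whose groups do not overlap, 1 point per array. Circles and triangles are the 2 array sets, and the black bars are the mean ± SD of 4 arrays. The groups lie farthest apart for slc35e1.L, at 4.78 and 3.65 in means, and nearly touch in the panel of slc41a3.L.

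Family 25, classed here as mitochondrial by its number alone, had 15 probe sets, 7 above 0 and 8 below. Their median difference was −0.05, and none was without overlap (0%, against 4.06% of all probe sets). Values of the central inner membrane carriers stayed close. The ADP/ATP carrier gene slc25a5.L lay between 12.25 and 12.42 on all 8 arrays (−0.05 ± 0.12, SE), and the phosphate carrier gene slc25a3.L between 5.47 and 5.78 (0.01 ± 0.13). Their 95% intervals ran from −0.31 to 0.22 and from −0.27 to 0.30. The second ADP/ATP carrier gene, slc25a4.L, was dim at 2.86 to 4.20, and the mitoferrin gene slc25a28.L, whose product brings iron into mitochondria, gave 0.00 ± 0.21.

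Only slc25a32.L, which carries folate and FAD precursors, fell under an unadjusted p of 0.05 in this family (6.67%, against 6.38% of all probe sets). It measured 3.29, 4.71, 4.44 and 4.19 in normal and 3.02, 3.86, 2.98 and 3.02 in sex-reversed ovaries, a difference of −0.94 ± 0.33 (SE; adjusted p = 0.733 in limma). Normal replicate 1 and sex-reversed replicate 2 overlap the other group, and all but 3 of the 8 values are below the lower quartile of their arrays. The gene slc25a44.L, whose product carries branched-chain amino acids, was low on 2 sex-reversed arrays. Its normal arrays gave 7.30, 6.59, 7.06 and 6.81, sex-reversed replicates 3 and 4 lay with or near them at 7.30 and 6.39, and replicates 1 and 2 were at 5.12 and 4.86 (−1.02 ± 0.50, SE; adjusted p = 0.792). Replicates 1 and 2 belong to one array set and 3 and 4 to the other, and the difference was −1.84 in the first set and −0.21 in the second.

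The calcium-regulated ATP-Mg/phosphate carriers slc25a24.L and slc25a25.L gave 0.70 ± 0.38 and 0.81 ± 0.51 (SE). For slc25a25.L normal replicate 4 was at 6.20 and the other 7 arrays lay between 8.43 and 9.0. For slc25a24.L normal replicate 2 was at 5.42 and the others at 6.41 to 7.46, and without that array the difference was 0.35. The S-adenosylmethionine carrier gene slc25a26.L ran from 4.15 to 7.53 with no order by group (−0.54 ± 0.75, SE) and held both its highest value, in replicate 1, and its lowest, in replicate 3, among the sex-reversed arrays. Leaving out either of these gave −1.14 and −0.016. The remaining 6 probe sets of the family, for slc25a11, slc25a17, slc25a22l and slc25a29, gave differences between −0.30 and 0.11.

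Amino acid, peptide and amine carriers made up 18 probe sets, 10 above 0 and 8 below, with a median difference of 0.13. This median was −0.047 when sex-reversed replicate 4 was counted as normal. The 4 genes of family 7, cationic and large neutral amino acid exchangers, had a median of −0.43, which was −0.083 in that same regrouping. The cationic amino acid carrier gene slc7a3.L measured 8.18, 8.83, 8.60 and 8.99 in normal and 8.58, 8.42, 7.56 and 7.79 in sex-reversed ovaries (−0.56 ± 0.27, SE; adjusted p = 0.788 in limma), and −0.29 when sex-reversed replicate 4 was counted as normal. Sex-reversed replicates 3 and 4 lay below all normal arrays, and replicates 1 and 2 within their range.

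For slc7a9.L, a cystine and dibasic amino acid carrier, a single array lay far off. Sex-reversed replicate 4 gave 6.06 and the other 7 arrays 7.55 to 8.57 (−0.66 ± 0.48, SE). The leucine carrier gene slc7a5.L, a partner of slc3a2, had normal replicate 3 at 6.66 and all other arrays at 4.95 to 5.59, and without that array the sign turned from −0.29 to 0.10. Its heavy chain slc3a2.L gave 0.30 ± 0.25 (SE), and 0.076 when sex-reversed replicate 4 was counted as normal. Sex-reversed replicates 1 and 4 had slc7a8.L at 4.96 and 4.44, where the other 6 arrays lay at 3.19 to 3.71.

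Glutamine carrier genes of family 38 were high on 1 or 2 arrays. For slc38a2.L sex-reversed replicate 4 was at 6.44 and the other 7 arrays at 3.61 to 4.47, and the difference of 0.79 ± 0.55 (SE) was 0.20 without it. For slc38a5.S normal replicate 3 and sex-reversed replicate 2 were at 5.88 and 5.75, the other arrays at 3.85 to 4.97. The neutral amino acid carrier slc1a5 gave 0.24 ± 0.17 (SE) for the .L and −0.06 ± 0.21 for the .S copy. The branched-chain amino acid carrier gene slc43a1.L gave 0.19 ± 0.27.

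The related gene slc43a2.L split into levels across both groups. Normal replicate 3 was at 9.59 and sex-reversed replicate 2 at 9.97, while the other 6 arrays ranged from 5.67 to 7.18 (−0.26 ± 1.05, SE). The vesicular monoamine carrier gene slc18a2.L did so too, at 9.67 and 9.48 in normal replicates 2 and 3 and 9.65 and 9.44 in sex-reversed replicates 2 and 4, against 7.29 to 8.21 on the other 4 arrays. Each group therefore held 2 arrays at either level, and the difference was 0.25 ± 0.61 (SE). The related slc18a1.S kept within 7.05 to 7.62. The other 5 probe sets of this class, for slc6a13.L, slc6a14.2.L, slc17a5.S, slc17a9.L and slc32a1.S, differed by −0.24 to 0.28.

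**Figure D3:**
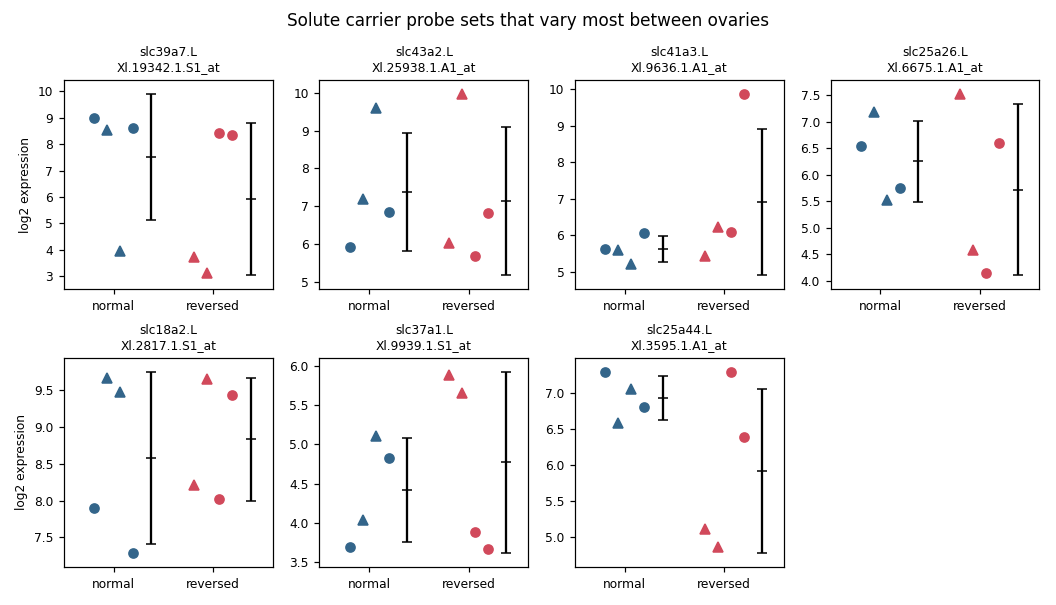
Log2 expression (vertical axis, each panel with its own range) in normal (blue) and sex-reversed (red) ovaries for the 7 solute carrier probe sets with the largest spread within groups or with values in 2 separate levels, 1 point per array. Circles and triangles are the 2 array sets, and black bars are the mean ± SD of 4 arrays. High and low values occur in both groups for slc39a7.L, slc43a2.L and slc18a2.L, while sex-reversed replicate 4 alone is high for slc41a3.L.

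Zinc, copper and magnesium carriers made up 13 probe sets, 8 above 0 and 5 below, with a median difference of 0.17 (−0.18 when sex-reversed replicate 4 was counted as normal). The most variable solute carrier between ovaries was slc39a7.L, the zinc carrier that releases zinc from the endoplasmic reticulum in mammals. Normal replicates 1 to 4 gave 8.98, 8.51, 3.95 and 8.60, and sex-reversed replicates 1 to 4 gave 3.75, 3.12, 8.42 and 8.36. The 3 low values lay below the lower quartile of their arrays, and nothing lay between 3.95 and 8.36. Low arrays occurred in both groups, 1 of 4 normal and 2 of 4 sex-reversed (−1.60 ± 1.55, SE; adjusted p = 0.890 in limma). Leaving out 1 array moved this difference between −2.79 and −0.67. All 3 low arrays belong to the same array set, whose other member, normal replicate 2, was high.

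The zinc carrier gene slc39a9.L was without overlap, at 8.20, 8.13, 8.06 and 8.28 in normal and 8.37, 8.38, 8.55 and 8.45 in sex-reversed ovaries (0.27 ± 0.12, SE; adjusted p = 0.787 in limma). Its homeolog slc39a9.S gave 0.01 ± 0.29. The zinc exporter gene slc30a1.L measured 8.43 to 8.88 in normal and 8.82 to 9.08 in sex-reversed ovaries (0.26 ± 0.14, SE), with normal replicate 2 inside the sex-reversed range. The vesicular zinc carrier gene slc30a2.L gave −0.11 ± 0.17, slc30a9.S 0.28 ± 0.18, and the copper carrier gene slc31a2.S 0.34 ± 0.20.

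The magnesium carrier gene slc41a3.L had 2 probe sets that differed in sign. The one was without overlap, at 2.91, 2.83, 2.93 and 3.50 in normal and 2.54, 2.51, 2.56 and 2.79 in sex-reversed ovaries (−0.44 ± 0.18, SE; adjusted p = 0.771 in limma), all below the lower quartile. The other gave 5.22 to 6.06 in normal ovaries, 5.44, 6.23 and 6.08 in sex-reversed replicates 1 to 3, and 9.87 in replicate 4. Its difference of 1.28 ± 0.85 (SE) was 0.29 without replicate 4.

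Sugar and carboxylate carriers were the largest class, with 22 probe sets, 8 above 0 and 14 below, and a median difference of −0.16. No member was without overlap (4.06% of all probe sets) or under an unadjusted p of 0.05 (6.38% of all probe sets). The glucose carrier gene slc2a1.L gave −0.08 ± 0.21 and 0.12 ± 0.26 (SE) on its 2 probe sets. All 8 probe sets of family 2 had intervals within a 2-fold change, the urate carrier gene slc2a9.L lying at 8.91 to 9.54 on all arrays and slc2a2.L and slc2a4.L below the lower quartile throughout. Of the lactate carriers, slc16a3.L gave 10.14 to 11.19 (−0.16 ± 0.29, SE) and slc16a1.S 2.79 to 5.12 (−0.49 ± 0.48). The latter difference ran from −0.82 without normal replicate 3 to −0.17 without sex-reversed replicate 2, and was −0.88 when sex-reversed replicate 4 was counted as normal.

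Family 37, sugar phosphate exchangers, had 4 probe sets with a median of −0.13. Among them slc37a1.L was high in sex-reversed replicates 1 and 2, at 5.88 and 5.65, and low in replicates 3 and 4, at 3.89 and 3.67, with normal arrays at 3.70 to 5.11. Its difference was 0.35 ± 0.56 (SE) over all arrays, 1.19 in one array set and −0.48 in the other, and 0.87 when sex-reversed replicate 4 was counted as normal. The glucose-6-phosphate carrier gene slc37a4.L, by contrast, stayed within 7.63 to 8.07. The dicarboxylate carrier gene slc13a3.L gave 0.54 ± 0.27 (SE), which was 0.32 without normal replicate 3 and 0.26 when sex-reversed replicate 4 was counted as normal. The sulfate carrier relative slc13a4l.S gave −0.22 ± 0.13, where a single sex-reversed array, at 7.15, lay inside the normal range of 7.12 to 7.40. The other members, from families 2, 5, 13, 16, 37 and 45, gave −0.37 to 0.30.

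Ion and pH carriers had 8 probe sets, 4 above 0 and 4 below, with a median difference of 0.08. The sodium-calcium exchanger gene slc8a1.S was the member on the higher side with an unadjusted p under 0.05. It measured 3.13, 3.64, 3.49 and 3.40 in normal and 4.16, 3.88, 4.09 and 3.94 in sex-reversed ovaries, without overlap (0.60 ± 0.15, SE; adjusted p = 0.639 in limma), and the difference was 0.75 and 0.46 in the 2 array sets. All normal values are below the lower quartile of the arrays and the sex-reversed ones lie about it. Its mitochondrial relative slc8b1.S gave 0.19 ± 0.17, and the phosphate carrier gene slc20a1.L −0.04 ± 0.14, with all arrays at 7.46 to 7.88.

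The anion exchanger gene slc4a1.L, known from red blood cells and kidney, was at 4.51 to 6.48 in normal and 5.33 to 6.20 in sex-reversed ovaries (0.44 ± 0.42, SE), with 0.87 without normal replicate 1 and 0.21 without normal replicate 3. Red cell markers had a mean of 3.97 to 4.23 in normal and 3.99 to 4.09 in sex-reversed ovaries over 5 probe sets, 4 of them below the lower quartile of every array. The remaining one, for hbg2.L, lay at 7.43 to 8.52 over all arrays and gave −0.40 ± 0.18 (SE). The 4 dim ones gave −0.27 to 0.35. The anion exchanger gene slc26a6 gave 0.46 ± 0.25, and slc4a11.L ran from 3.31 to 6.02, with sex-reversed replicate 4 at the top. The scaffold gene slc9a3r1.L gave −0.19 ± 0.19 on one probe set and −0.72 ± 0.32 on the other, whose values were 3.75 to 4.79 in normal and 2.86 to 4.03 in sex-reversed ovaries.

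The last 13 probe sets, for lipid, vitamin, nucleoside and other carriers, had 9 values above 0 and 4 below and a median of 0.09. The nucleoside carrier genes slc29a1.S and slc29a2.L gave 0.17 ± 0.23 and −0.02 ± 0.19 (SE), and the former 0.0051 without normal replicate 4 and 0.36 without normal replicate 3. The choline carrier gene slc44a1.L was high in normal replicate 1, at 6.31, and in sex-reversed replicates 1 and 3, at 5.44 and 6.10, against 4.15 to 4.69 elsewhere (0.24 ± 0.51, SE). The organic ion carrier relative slc22a15.2.S followed the array sets, at 7.72 to 9.03 in one and 7.27 to 7.49 in the other, with a difference between groups of 0.20 ± 0.45. The fatty acid carrier genes slc27a2.L and slc27a6.L gave 0.09 ± 0.48 and 0.40 ± 0.28, the folate carrier gene slc46a1.L 0.04 ± 0.39 and the heme carrier gene slc48a1.S −0.06 ± 0.15. The largest value of the class was 0.55 ± 0.27 for slc10a7.S, and slc22a5.L, slc33a1.L, slc49a3.S and slc66a1l.L gave −0.15 to 0.15.

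Values that varied from ovary to ovary were common among solute carriers, as they were in some other transport genes. The median SD within groups was 0.36 log2, beside 0.30 over all probe sets, and 52 members (53.1% against 44.0%) had a range of more than 1 log2 over the 8 arrays. In the lists described below, that share was 54.5% for the proton pump (V-ATPase) and 55.6% for sodium-potassium and calcium pumps. It was 50% for aquaporins, 39.3% for enzymes that use nucleotide sugars and 22.2% for the ABC list. Values in 2 levels, with a gap of at least 1 log2 that made up at least 50% of the range and left at least 2 arrays on each side, were found in 4 members (4.08% against 3.1%), namely slc18a2.L, slc25a44.L, slc39a7.L and slc43a2.L. The set of arrays on the low side differed between these genes, but sex-reversed replicate 1 was among them in all 4. Sex-reversed replicate 2 was also low for both slc25a44.L and slc39a7.L. In the lists described below, values in 2 levels made up 10.7% of the enzymes that use nucleotide sugars and 0% of the other lists. Values of the 2 array sets did not overlap in 5 members (5.1%, against 7.5% of all probe sets), namely slc1a5.S, slc22a15.2.S, slc25a11.S, slc30a6.S on its _x_at probe set and slc35b1.L. Of these slc25a11.S, the oxoglutarate carrier gene, was at 6.69 to 6.77 in one set and at 4.90 to 5.79 in the other. The part of muelleri sequence in any of these values was not tested.

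Genes with more than 1 probe set could be compared within each array. Of 10 such genes 4 had the same sign on all probe sets, slc9a3r1, slc25a17, slc35b3 and slc39a9. Over the 8 arrays the probe sets of these 4 genes correlated at 0.61, −0.52, 0.56 and −0.12 in that order. The zinc carrier slc30a6 had 4 probe sets, and the sign followed the kind of probe set rather than the homeolog. The plain probe sets gave −0.32 ± 0.36 (SE) for slc30a6.L and −0.30 ± 0.17 for slc30a6.S, and those ending in _x_at, which Affymetrix marks as able to bind other transcripts, gave 0.40 ± 0.38 and 0.17 ± 0.18. The 2 copies of slc25a11 gave −0.30 ± 0.39 for .L and 0.11 ± 0.48 for .S. No pair of values in this comparison was tested against each other.

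**Figure D4:**
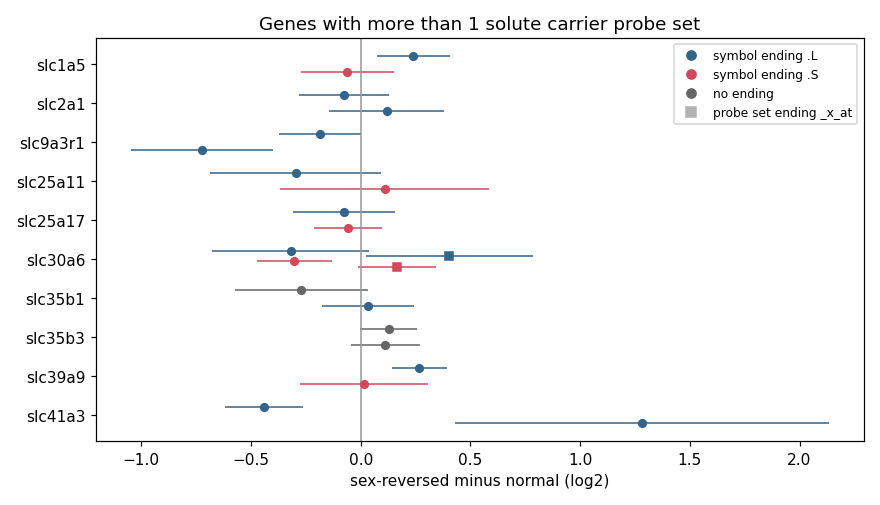
Mean log2 value in sex-reversed minus normal ovary (horizontal axis) with bars of 1 SE from limma, for the 10 genes (vertical axis) with more than 1 solute carrier probe set. Blue points are symbols ending in .L, red in .S and grey in neither, and squares are _x_at probe sets. In slc30a6 both squares lie above 0 and both circles below, and the 2 slc41a3 points lie at −0.44 and 1.28.

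Other transport genes were counted for comparison, from lists picked by symbol. The proton pump (V-ATPase), whose gradient drives many carriers of acidic vesicles, had 22 probe sets with 14 values above 0 and a median of 0.09. Its proteolipid gene atp6v0c.L measured 6.30 to 6.95 in normal and 7.06 to 7.25 in sex-reversed ovaries without overlap (0.41 ± 0.17, SE; adjusted p = 0.779 in limma), but its 2 other probe sets gave −0.18 ± 0.25 and −0.37 ± 0.20. The subunit gene atp6v1b1.L gave 0.78 ± 0.33. It and the atp6v0c.L probe set without overlap had an unadjusted p under 0.05 in limma (9.09% of the list, against 6.38% of all probe sets). The lowest value of the list was −1.96 ± 1.23 on a probe set of atp6v1c1.L. There sex-reversed replicates 3 and 4 were at 4.02 and 2.89 and all other arrays at 6.53 to 8.58. The other atp6v1c1.L probe sets gave 0.07 and 0.10, and atp6v1a.L gave −0.56 ± 0.31. Sodium-potassium and calcium pumps, which set the ion gradients that carriers use, had 9 probe sets with 5 above 0 and a median of 0.03. The ABC list, picked by symbol and not limited to transporters, had 9 with 3 above 0 and a median of −0.09. Its 1 probe set under an unadjusted p of 0.05 in limma (11.1%, against 6.38% of all probe sets) was one of abce1.S (−0.62 ± 0.25). The product of abce1 acts on ribosomes and not as a transporter. The other abce1.S probe sets gave −0.09 and 0.24. In the rest of the list abca4.L, abcb1.L and abcd3.S gave −0.18, −0.39 and −0.04, and abcf1.L, abcf2.L and abcf3.L gave −0.10, 0.05 and 0.03. Enzymes that use the nucleotide sugars of family 35 had 28 probe sets with 13 above 0 and a median of −0.03, ext1.S being lowest at −0.92 ± 0.34. That was the 1 probe set of this list under an unadjusted p of 0.05 in limma (3.57%), and the pump and aquaporin lists had 0. The 2 aquaporin probe sets, aqp3.L and aqp11.L, gave −0.26 and −0.17. None passed after adjustment over all probe sets (limma, adjusted p from 0.738).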

How the data were processed

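Each deposited file holds log2 values, 1 per probe set and array, which the authors computed with RMA per the submitters' processing notes, with no version named. RMA equalises the distributions of the 8 arrays, so shifts common to most genes are removed. The base of 2 was inferred from RMA and from the size of the values. Gene symbols are those of the array's annotation and may be outdated: 6798 probe sets had 1 symbol, 110 several and 4577 none listed. The number of arrays limits precision.

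All 11485 probe sets were fitted together with limma 3.58.1 in R 4.3.3 (lmFit and eBayes, two-sided, no covariate, no filter) and Benjamini-Hochberg adjustment over all of them. The fit was run on simulated arrays with 4-fold changes, of which it recovered a mean of 84.55%. Those arrays lacked the split into array sets, and smaller changes were not simulated. Array sets came from average linkage on correlation distances. Figures used Python 3.11.15 and matplotlib 3.10.9.

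Members and lists were chosen with earlier results of these data known. Named were slc35e1.L, 8 members per direction by absence of overlap and then unadjusted p, the 6 of largest SD and those in 2 levels. Also named were the 17 of 29 symbols fixed by role that had an exact match among probe sets with deposited values. The fixed symbol slc5a8 was not matched to slc5a8.1.L, which the array holds. Other members were named after their values were seen. Other settings are given in the closing section.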

Additional observations from a re-analysis of the deposited data

Results flagged for a closer look

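In 12 of 196 groups of 4 arrays (6.12%, against 6.44% over all probe sets) a single array stood apart from the other 3 by Dixon's criterion, where chance gives about 1 in 20, or 9.8. In normal ovaries these were slc41a3.L at 3.497, slc25a25.L at 6.199 (both replicate 4), slc39a7.L at 3.946, slc38a2.L at 4.467, slc5a8.1.L at 4.291 (replicate 3) and slc37a4.L at 8.066 (replicate 2). In sex-reversed ovaries they were slc7a5.L at 5.592 and slc35b1 at 6.595 (replicate 4), slc25a32.L at 3.857 and slc5a8.1.L at 4.553 (replicate 2), slc6a13.L at 3.233 (replicate 1) and slc25a24.L at 6.774 (replicate 3). The slc41a3.L value is from its probe set without overlap. Why these arrays stood apart was not tested.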

How the results depend on the processing

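Under all 18 other settings 0 solute carrier probe sets passed adjustment in limma, the lowest adjusted p of a member running from 0.272 to 0.925. With a mean of at least 4, 0 of 79 members were higher (3.39% of the 8707 probe sets kept) and 1 lower (1.27% against 3.16%) at an unadjusted p of 0.05. In this setting 3 members did not overlap (3.8% against 4.11%) and the median difference was 0.077. With the array set as a block 3 were higher (3.06% against 3.85%) and 6 lower (6.12% against 4.06%). At an unadjusted p of 0.01, 1 was higher (1.02% against 0.609%) and 1 lower (1.02% against 0.749%). With sex-reversed replicate 4 moved to normal 2 were higher (2.04% against 3.01%), and medians were −0.083 for family 7, −0.047 for amino acid carriers and −0.18 for metal carriers. That regrouping turned the sign of slc2a1.L (0.060 and −0.14), slc35b1.L (−0.17), slc38a2.L (−0.31), slc25a28.L (−0.11), slc18a2.L (−0.12), slc35b1 (0.31) and the second slc41a3.L probe set (−0.56). Array weights turned slc2a1.L (0.00207) and slc35b1.L (−0.0424). The cause was not tested.

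Leaving out 1 array gave 0 to 2 calls over all probe sets (1 without normal replicate 1, 2 or 3, and 2 without sex-reversed replicate 2). It gave 1 to 6 members higher (1.02% to 6.12%, against 2.54% to 3.49% of all probe sets). Members without overlap numbered 7 to 11 (7.14% to 11.2%, against 6.36% to 8.26%). Member medians were −0.012 to 0.0483. Class medians were 0.054 to 0.21 for ions and pH, −0.012 to 0.20 for other carriers, 0.039 to 0.24 for metals, 0.020 to 0.19 for amino acids and −0.17 to −0.079 for sugars and carboxylates. Family medians were −0.074 to 0.010 for family 25, −0.10 to 0.075 for family 2, −0.51 to −0.24 for family 7, 0.040 to 0.17 for family 35 and −0.18 to −0.082 for family 37. Signs turned within −0.18 to 0.10 for slc1a5.S, −0.11 to 0.16 for slc25a28.L, −0.074 to 0.37 for slc25a4.L, −0.091 to 0.17 for slc35b1.L, −0.40 to 0.059 for slc35b1, −0.47 to 0.10 for slc7a5.L, −0.22 to 0.039 and −0.031 to 0.29 for slc2a1.L, −0.033 to 0.068 for slc25a3.L, −1.21 to 0.48 for slc43a2.L, −0.067 to 0.71 for slc44a1.L, −0.18 to 0.61 for slc18a2.L, −0.016 to 0.72 for slc37a1.L and −0.083 to 0.057 for slc20a1.L.

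Deviations of arrays with the same replicate number correlated at −0.19, 0.24, −0.19 and 0.17, and 2 of 8 arrays correlated best with their own number. Normal and sex-reversed arrays numbered 2 or 4 share an array set with their namesake, and those numbered 1 or 3 do not. The deviations still hold that split, so this check cannot tell whether the numbers pair the samples. With the replicate block 663 probe sets had an unadjusted p under 0.05, against 733 without, and 5 members against 4 (1 higher, 1.02% against 2.82%, and 4 lower, 4.08% against 2.95%). No member passed adjustment, and slc35e1.L had an adjusted p of 0.833 in limma.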
